A study of Homo sapiens with 8 samples.

Results

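The regions described are the m6A peaks that the deposited peak table labels as lying at the transcript start. They were chosen by that label alone, with no threshold on score, and numbered 2444 of the 37501 peaks of the series. After UV 1229 were listed, after heat shock 812, with HGF 341 and with IFNg 62. They lay in 1446 gene models with 1442 gene symbols, out of 25918 gene models in the table, of which 19965 are protein-coding. The label marks every peak listed before nucleotide 200 of a coding transcript. Its members lay between nucleotides 51 and 199, and 0 peaks before nucleotide 200 of a coding model carried another label. The label is therefore a distance, which can cover 5′ UTR and the first codons alike.

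The cultures were labelled HepG2, a human hepatocarcinoma line, and each treatment had 1 anti-m6A immunoprecipitation library and 1 input library from polyA-selected RNA broken into fragments of about 100 nt. Cells irradiated with UV received 0.04 J per square centimetre and were harvested 4 h later. Heat shock lasted 30 min at 43 degrees. The wording of the labels leaves it unclear whether a recovery period also followed heat shock. HGF, hepatocyte growth factor and the ligand of the receptor MET, was given at 10 ng/ml, and interferon gamma (IFNg) at 200 ng/ml, both overnight. No untreated culture was analysed here, so nothing below is a change from an unstressed state. With 1 library pair per treatment no difference has a replicate check, and no p-value is given. Intervals are exact Clopper-Pearson 95% intervals and cover counting error only. Library depth is unknown.

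The markers do not bear out the labelled cell type. Of 9 defining hepatocyte genes (ALB, AFP, APOA1, APOB, TF, TTR, SERPINA1, FGB and HNF4A), the median expression percentile was 45.5 after UV, where the floor shared by the lowest gene models also stood at 45.5. It was 32.8 after heat shock (floor 32.7), 27.5 with HGF (floor 20.4) and 27.0 with IFNg (floor 18.4). The highest of the 9 reached 76.1, 71.5, 43.0 and 56.9, in the same order. The 6 blood-cell markers had medians between 33.0 and 45.5 and the 7 fibroblast and endothelial markers between 38.6 and 54.4, with both medians at the floor after UV. The highest blood-cell marker reached 60.9, 50.3, 53.8 and 55.2, in the same order. The highest fibroblast or endothelial marker reached 79.8, 80.0, 83.6 and 80.9, above the highest hepatocyte gene in each treatment. The expression percentile is the authors' rank of a gene model within its treatment, with no amounts.

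N6-methyladenosine is written into mRNA by a METTL3-containing complex, mostly at adenosines within the context GGAC, and it is densest near stop codons. The start of an mRNA is a special case. When the first transcribed base is adenosine it can carry a methyl group on the base as well as on the ribose (m6Am), and antibodies raised against m6A also bind m6Am. The mRNAs of ribosomal proteins and of many translation factors mostly begin instead with cytidine followed by pyrimidines. Methylation in the 5′ UTR has been studied for its part in cap-independent translation under stress.

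Start sequences are shown for genes on which the results below turn, to let the first base and its setting be seen. Each is 30 bases of RefSeq on GRCh38.p14, with 20 bases before the annotated start and 10 from it, 5′ to 3′ on the gene's strand. The capital letter is the first base annotated by RefSeq. Peak positions are counted from the start of the deposited gene model, which can be another base. For CMAS and HNRNPA2B1, the GENCODE exon 1 matched below begins at a different base from the RefSeq start.
EED (chr11:86244733-86244762, plus strand): ggacattggtggtgtagcccAttccacaga
PSMC4 (chr19:39971145-39971174, plus strand): tcgtcagcggaagcggtgacAgatcatccc
HNRNPA2B1 (chr7:26200737-26200766, minus strand): gcggcagcggctctagcggcAgtagcagca
SFRS6 (chr20:43457876-43457905, plus strand): gcctggcgcgcgcgcgcgccAttgtgtggc
HSPA1B (chr6:31827718-31827747, plus strand): cgaggggcgcgcggtccggaAaacggccag
NDUFS6 (chr5:1801387-1801416, plus strand): gttgcgccgggtcaaaggccAgcggcgcaa
CMAS (chr12:22046198-22046227, plus strand): ggccgcgcgcgccagctgccAggcggggat
METTL3 (chr14:21511331-21511360, minus strand): cttgctcagctccaggggtcAttttccggt
UQCRQ (chr5:132866622-132866651, plus strand): ccaaccttgccggaaatgacGaacgagtca
HSPD1 (chr2:197499831-197499860, minus strand): gtgtgcgccctgcactctgtCcctcactcg
FAU (chr11:65122125-65122154, minus strand): tgacgcgccctcgcttcttcCtctttctcg
RPS14 (chr5:150449730-150449759, minus strand): tcgctccgccccctcccactCtctctttcc
The first 8 begin with adenosine, UQCRQ with guanosine, and the last 3 with cytidine. FAU and RPS14, both encoding ribosomal proteins, have the pyrimidine run known from that class, and both nevertheless carried a start peak.

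Sequence around the listed peak itself could be read only where the exon length given for the peak equals that of exon 1 of a single GENCODE 29 start on GRCh38, which held for 22 of the 86 genes that the naming rule chose. In 7 of the 22, GGAC lay within 50 nt of the listed position. In the other 15 none was found. The search ended with exon 1, so this says only that these letters are absent from the part of that window within exon 1. How often windows of this size hold GGAC without a peak was not measured, so the count does not tie motif to peak. In the first 50 bases from the RefSeq start, a shorter stretch, GGAC was present in 19.2% of highly expressed gene models with no start peak. The windows below come from the GENCODE 29 genome, with GGAC, or GGACT, in capitals.
CMAS (chr12:22046296-22046320, plus strand): ggaggaagatGGACTcggtggagaa
NHS (chrX:17375627-17375651, plus strand): ctgcgtatccGGACTgccagatcgc
HNRNPA2B1 (chr7:26200650-26200673, minus strand): tacagcgccaGGACgagtccggtt
STIP1 (chr11:64186237-64186260, plus strand): acggggttccGGACcgcgctgcgc
EGFR (chr7:55019135-55019158, plus strand): cgcccagaccGGACgacaggccac
MRPL20 (chr1:1407225-1407248, minus strand): tgagtgttcgGGACgccggcctgc
RBM45 (chr2:178112539-178112562, plus strand): ggagcaccatGGACgaagctggca
In CMAS, which makes the activated form of sialic acid, and in RBM45, an RNA-binding protein, the match overlaps the start codon. In the other 5 it lies in the 5′ UTR. The position used for NHS was nucleotide 202, just past the start segment. Among genes without a match, SDHB was likewise read at 202 and UBE2K at 218. The adenosine of the match was 12 nt downstream of the listed peak in CMAS, 18 in NHS, 17 in HNRNPA2B1 and 32 in EGFR. In the remaining genes it lay upstream, with a difference of -13 nt in STIP1, -25 in MRPL20 and -16 in RBM45.

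Start peaks were a larger part of the peak list after UV and heat shock than with HGF and IFNg, and this order held in nearly every subset examined. They made up 1229 of 12945 labelled peaks after UV, 812 of 9585 after heat shock, 341 of 8856 with HGF and 62 of 5165 with IFNg, which is 9.49%, 8.47%, 3.85% and 1.20%. When the same number of highest-scored peaks (5280, the IFNg total) was taken from each treatment, the shares were 7.42% after UV (6.72 to 8.17), 8.43% after heat shock (7.69 to 9.22), 2.16% with HGF (1.78 to 2.60) and 1.20% with IFNg (0.922 to 1.54). The order of UV and heat shock turned round there, with overlapping intervals. Peaks with a score of 3 or more gave 9.37%, 8.61%, 2.32% and 0.806%. In the 6479 gene models of highest mean percentile the shares were 12.9%, 11.4%, 5.07% and 1.34%. In gene models that every treatment lists with a peak, they were lower and closer together, at 5.34%, 4.64%, 2.08% and 1.01%.

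GC content near the start divided the share within every treatment, but not the order of the treatments. Models were split at 60% and 70% GC over the first 50 transcribed bases of RefSeq. Above 70% GC the start share was 6.88% after UV, 5.41% after heat shock, 1.95% with HGF and 0.598% with IFNg. Up to 60% it was 10.9%, 10.2%, 5.08% and 1.98%, and in between 11.8%, 11.4%, 5.53% and 1.37%. GC-rich starts thus carried the smallest share in all 4 treatments. UV and heat shock stayed above HGF and IFNg within each GC class.

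**Figure D1:**
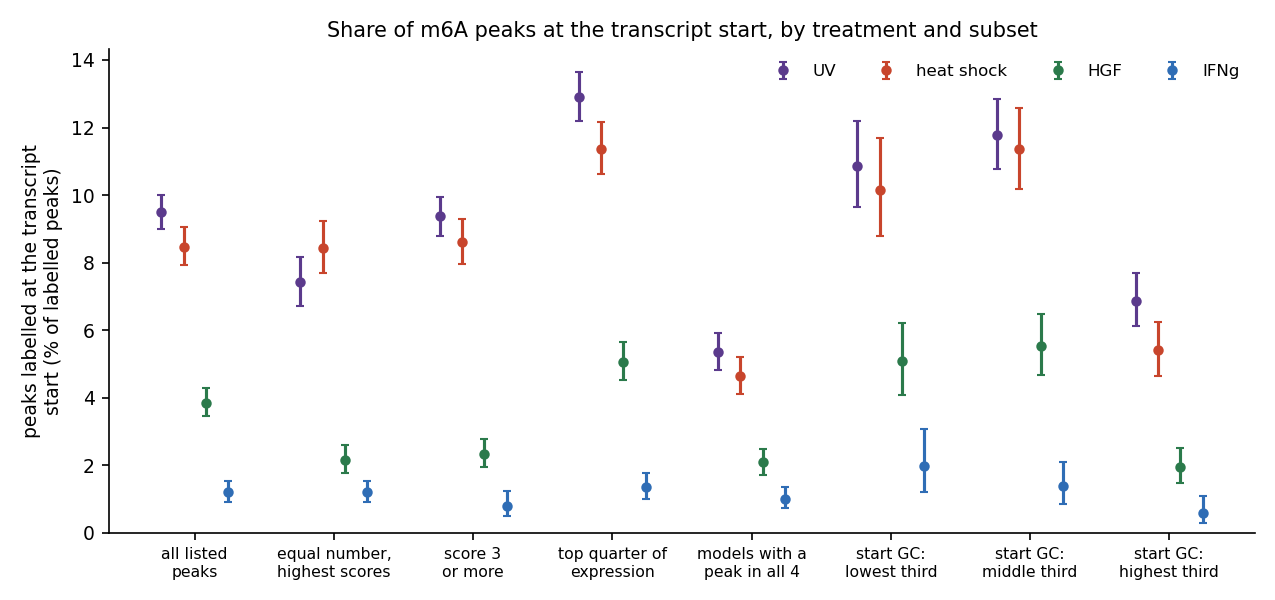
Share of labelled m6A peaks at the transcript start (y axis, % of labelled peaks) in 8 subsets of peaks (x axis), with 1 point per treatment and exact 95% intervals for counting error; the expression subset is the 6479 models of highest mean percentile, and the GC subsets are cut at 60% and 70%. UV and heat shock lie above HGF, and HGF above IFNg, in each subset; with equal numbers of peaks the values are 7.42%, 8.43%, 2.16% and 1.20%.

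The gap remained among gene models that were highly expressed in every treatment. Of 1378 coding gene models that reached percentile 90 in all 4 treatments, 466 had a start peak after UV (33.8%), 390 after heat shock (28.3%), 115 with HGF (8.35%) and 25 with IFNg (1.81%). The same models were thus highly expressed in every culture but listed with a start peak mostly in the stressed ones. Gene models of the 496 sites listed after UV and heat shock alone had median percentiles of 94.8 and 94.7 in those treatments, and of 93.7 and 93.5 with HGF and IFNg. A peak not listed is not shown to be absent, since the depth behind each list is unknown. Treatment, library and depth cannot be told apart here.

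Peaks of a gene model within 100 nt of each other were joined into 1 site, and a site counted as a start site if any of its peaks had the start label. There were 1448 start sites, of which 41 also held a peak with another label. Only 36 of them (2.49%, 1.75 to 3.43) were listed in all 4 treatments, where 16.5% of all sites in the series and 17.7% of the 16316 sites elsewhere were. In 1 treatment alone 45.5% were listed, against 40.3% of all sites. Counting only peaks that themselves carry the start label, 1.73% were listed in all 4, and with peaks of a score of 3 or more 1.01% (12.9% of other sites). The IFNg list held only 62 start peaks, which limits how many start sites could be listed in all 4. Of start sites with an IFNg peak, 36 were listed in all 4 and 11 in IFNg alone. For other sites with an IFNg peak these counts were 2889 and 917.

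The commonest patterns were UV with heat shock (496 sites, 34.3% of start sites against 13.4% of other sites) and UV alone (475, 32.8% against 19.9%). UV, heat shock and HGF together listed 178 sites, which is 12.3% of start sites and 12.98% of other sites. Heat shock alone listed 95, HGF alone 78, UV with HGF 44 and IFNg alone 11. Heat shock with IFNg listed 0 start sites and 87 other sites. Start sites were thus shared mainly between the 2 stress treatments. Their lists of start peaks were also the longest, at 1229 and 812 against 341 with HGF and 62 with IFNg.

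**Figure D2:**
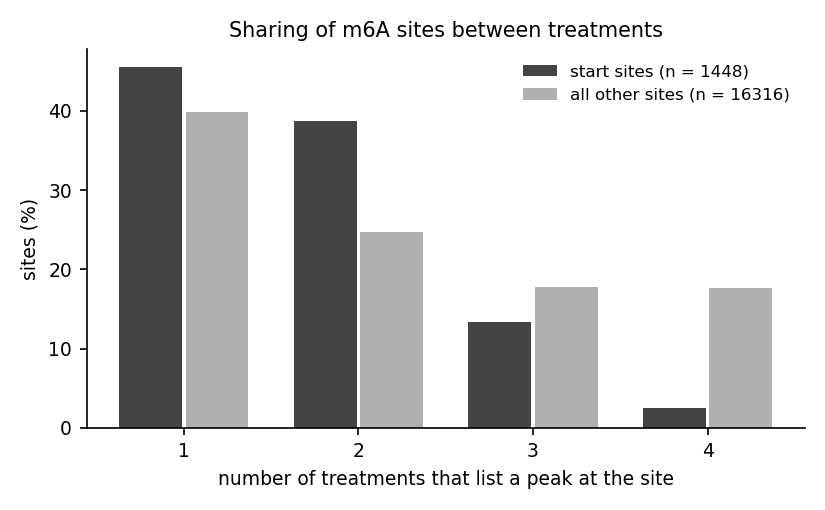
Share of m6A sites (y axis, %) listed in 1, 2, 3 or 4 treatments (x axis), for the 1448 start sites (dark bars) and the 16316 other sites (light bars). Start sites exceed the others at 1 and 2 treatments and fall to 2.49% against 17.7% at 4. The IFNg list of 62 start peaks limits the value at 4.

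Taken from each treatment's own list, the small IFNg and HGF sets were mostly contained in the UV set. Of start peaks after heat shock 86.6% had a UV peak within 100 nt (84.0 to 88.8), against 83.4% of other peaks. For HGF the figures were 71.0% (65.8 to 75.7) and 70.8%, and for IFNg 67.7% (54.7 to 79.1) and 67.8%. Start peaks and other peaks were therefore matched in UV at nearly the same rate. In the opposite direction they parted: of UV start peaks 20.3% had an HGF peak (18.1 to 22.7), against 51.2% of other UV peaks, and 3.58% had an IFNg peak (2.61 to 4.78), against 29.3%. UV start peaks were matched in heat shock at 57.3%, against 61.9%.

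Scores are compared between treatments as ranks within each treatment, as the authors' score has no stated formula. Raw scores are given side by side, and those of other peaks were lower with HGF and IFNg too. The median score of start peaks was 3.79 after UV, 3.77 after heat shock, 2.71 with HGF and 2.72 with IFNg, and the highest were 8.18, 8.29, 7.05 and 5.11. Other peaks had medians of 4.10, 3.72, 3.36 and 3.01. Ranked from 0 to 100 among all peaks of the treatment, the median start peak stood at 42.9, 51.5, 28.7 and 37.0. Start peaks thus ranked in the middle of the list after heat shock and low in it with HGF and IFNg. With HGF 63.3% of them scored below 3, against 38.4% of other peaks, and with IFNg 66.1% against 49.5%. After UV and heat shock the shares were 24.0% against 23.1% and 27.2% against 28.6%.

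After UV and heat shock, and with HGF, median scores were higher at start sites listed in more treatments than at those listed once. After UV the median score was 3.42 at start sites listed there alone, 3.89 at those in 2 treatments, 4.51 in 3 and 4.50 in all 4. After heat shock it was 2.82, 3.68, 4.15 and 3.99. With HGF it went from 2.54 through 2.62 and 2.74 to 3.21, and with IFNg it was 2.69, 2.62, 2.56 and 2.77, with no such trend. The trend with sharing was thus not the same in all treatments.

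The 36 start sites listed in all 4 treatments had median score ranks of 60.01 after UV, 57.7 after heat shock, 46.3 with HGF and 39.4 with IFNg. The 2889 other sites listed in all 4 stood at 77.5, 68.0, 73.8 and 62.0. Even the most widely listed start sites thus ranked below sites elsewhere in each treatment.

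Some of these 36 sites scored high throughout. SLMAP, a membrane-anchored protein of the STRIPAK phosphatase complex (deposited coordinates chr3:57718214-57889934, plus strand), had scores of 8.18 after UV, 6.88 after heat shock, 7.05 with HGF and 4.23 with IFNg, at nucleotides 112, 105, 93 and 89 of exon 1. Its score after UV was the highest of the UV start peaks and that with HGF the highest of the HGF start peaks. EED (chr11:85633463-85667428, plus strand), a core subunit of the polycomb complex PRC2, scored 7.83, 5.59, 4.47 and 3.19 in the same order, between nucleotides 133 and 155. Its ranks went from 99.3 after UV to 56.7 with IFNg.

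OGDH (chr7:44612696-44715194, plus strand), a subunit of the 2-oxoglutarate dehydrogenase complex of the citric acid cycle, ran the other way in rank. Its scores were 5.39 after UV, 5.44 after heat shock, 6.92 with HGF and 6.24 with IFNg, with ranks of 79.9, 89.8, 99.4 and 99.7. The IFNg peak lay at nucleotide 208 and had no start label. LIMD1, a LIM-domain scaffold protein, scored 5.12, 4.59, 5.45 and 3.63, within nucleotides 127 to 131 in all 4 treatments. CCND1, which encodes cyclin D1, the partner of CDK4 and CDK6 in G1, scored 4.21, 4.00, 3.31 and 3.14 between nucleotides 135 and 160. A start site listed throughout thus did not always keep its place in the list.

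A start site in all 4 can include peaks just past nucleotide 200. In TAP2, a subunit of the peptide transporter of antigen presentation, the peak lay at nucleotide 231 after UV, 223 after heat shock and 227 with HGF, and at 136 with IFNg, where alone it had the start label. Its scores were 5.86, 5.16, 3.10 and 3.47. Its expression percentile was 73.8, 68.4, 75.8 and 97.4, so it was highest with IFNg.

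A treatment was said to stand apart at a site when its score rank differed by 25 points or more from each of the other 3, in the same direction. UV stood above at 2 of the 36 start sites, beside 3.59% of all 2925 sites listed in all 4. Heat shock stood above at 1 (0.957% of all), HGF above at 3 (2.97%) and below at 2 (3.11%), and IFNg above at 0 (2.05%) and below at 1 (15.0%). UV stood below at 0 (1.4%), and so did heat shock (4.75%). Counts of 0 to 3 among 36 sites are too small to set against these shares.

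ADARB2, a brain-type member of the RNA adenosine deaminase family, had the widest gain. Its scores were 2.88 after UV, 5.13 after heat shock, 2.08 with HGF and 2.18 with IFNg, so that heat shock ranked at 85.2 and the others at 20.04, 3.86 and 10.2. All 4 peaks lay within nucleotides 111 to 122. NHS, the gene of Nance-Horan syndrome, ranked at 89.8 after UV, 57.3 after heat shock, 22.6 with HGF and 57.9 with IFNg, with scores of 6.07, 3.97, 2.53 and 3.22. Its peaks lay at nucleotides 202, 203, 195 and 201, so only the HGF peak had the start label. SLC39A7, a zinc transporter of the endoplasmic reticulum, ranked at 67.7 with HGF, against 29.1 after UV, 25.9 after heat shock and 13.8 with IFNg, but its peaks ran from nucleotide 184 after UV, the only one with the start label, to 302 and may be more than 1 site. JUB (now AJUBA), a LIM-domain protein, ranked at 11.5 with IFNg and at 70.2, 66.0 and 60.2 in the other treatments.

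Sites listed after a single treatment had high scores in a few genes. After UV alone GHITM, a protein of the inner mitochondrial membrane, scored 6.68, FLVCR1, a haem exporter, 6.31, CMAS 6.13 and EIF2B3, a subunit of the exchange factor eIF2B, 6.01. After heat shock alone IK, a spliceosome-associated protein, scored 6.43, SUGT1, a co-chaperone of HSP90, 5.77, PPP1CB, a catalytic subunit of protein phosphatase 1, 5.00, SNRPG, a core snRNP protein, 5.00, and PDE3B 4.97. HGF alone listed CHML at 4.46, RBM45 at 4.17 and MRPS14 at 3.76, and IFNg alone listed MAGOHB, a part of the exon junction complex, at 4.58 and PABPC4L at 3.99. GHITM and IK were highly expressed in all 4 treatments: GHITM stood at percentiles of 96.1, 97.8, 94.9 and 91.4, and IK at 97.0, 97.6, 97.2 and 96.0, in the order UV, heat shock, HGF and IFNg.

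Within the start segment, peaks with HGF lay further downstream than those after UV and heat shock. The median position was nucleotide 103 after UV, 104 after heat shock, 116 with HGF and 115.5 with IFNg, and the lowest were 52, 53, 70 and 51. Below nucleotide 100 lay 44.6%, 45.0%, 24.9% and 30.6% of the start peaks. No listed position thus lay within the first 50 nt in any treatment. Whether the fragment length of about 100 nt sets that limit was not tested. Of the start peaks 86.0% lay in exon 1 after UV (83.9 to 87.9), 84.1% after heat shock (81.4 to 86.6), 75.1% with HGF (70.1 to 79.6) and 64.5% with IFNg (51.3 to 76.3).

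The shift was also present at single sites. At the 261 start sites listed after both UV and HGF, the HGF position was downstream at 189 and upstream at 65, with a median difference of 9 nt. Against heat shock HGF was downstream at 163 of 228 sites, with a median of 10.5 nt. Heat shock and UV differed by a median of -1 nt over 719 sites, and 86.5% of those pairs lay within 20 nt. IFNg was downstream of UV at 35 of 51 sites, with a median of 7 nt. In HNRNPA2B1, for example, the peak lay at nucleotide 116 after UV, 113 after heat shock and 140 with HGF.

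**Figure D3:**
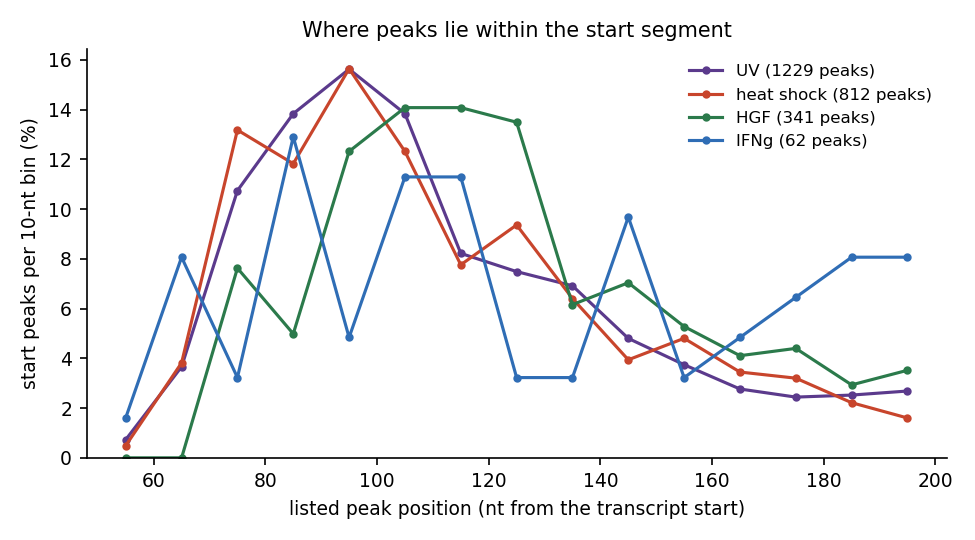
Share of a treatment's start peaks (y axis, %) in bins of 10 nt along the transcript (x axis, nucleotides from its start), with 1 line per treatment. UV and heat shock peak together near nucleotide 100 and HGF lies to the right of them, at medians of 103, 104 and 116; the IFNg line rests on 62 peaks and is ragged.

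Start peaks sat in highly expressed genes far more than peaks elsewhere did. The median percentile of gene models with a start peak was 91.7 after UV, 93.9 after heat shock, 90.2 with HGF and 91.2 with IFNg. Models with peaks of other segments and no start peak had medians of 77.0, 78.0, 78.7 and 82.9. Of coding models with a mean percentile under 60, 0.299% had a start peak in any treatment. The share went through 4.70% (60 to 75), 12.99% (75 to 90), 27.4% (90 to 95) and 39.8% (95 to 98) to 48.2% (98 and over). The share with a peak elsewhere was 60.4%, 69.1%, 70.4%, 72.4% and 67.4% in the 5 classes from 60 upward, so it levelled off where that of start peaks did not.

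Many start-peak genes had no other listed m6A. Of the 1446 models, 475 (32.8%) had no peak of another segment in any treatment. Over all coding models, start-peak genes more often had another peak in the same treatment, and among highly expressed models less often. Another peak was listed for 55.0% of start-peak models after UV (52.1 to 57.8), 48.6% after heat shock (45.2 to 52.1), 43.4% with HGF (38.1 to 48.8) and 37.1% with IFNg (25.2 to 50.3). Of all coding models with no start peak 30.4%, 24.6%, 25.4% and 17.1% had a peak elsewhere, in the same order. Within the 6479 models of highest mean percentile the shares were 54.3%, 48.3%, 42.8% and 36.5%, while models with no start peak had a peak elsewhere in 62.4%, 52.3%, 51.4% and 39.4%. The direction thus turned with the restriction on expression, and neither difference was tested.

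Gene groups were compared by how many of their members had a start peak in any treatment, beside 7.38% of all 19537 coding symbols and 43.3% of those with a mean percentile of 95 or more. By treatment the background was 6.27% after UV, 4.14% after heat shock, 1.75% with HGF and 0.317% with IFNg. Splicing factors and proteasome subunits had the highest shares of the 15 lists, and ribosomal proteins, secreted liver proteins and interferon genes were among the lowest. These are counts with no test, and expression differs between the lists.

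Of 34 proteasome subunits 21 had a start peak (61.8%), 17 after UV, 15 after heat shock, 3 with HGF and 2 with IFNg. Their median mean percentile was 96.7, and 44.1% had a peak elsewhere. PSMC4 (chr19:45168913-45179193, plus strand), an ATPase of the regulatory particle, scored 5.61 after UV, 5.00 after heat shock, 2.75 with HGF and 3.33 with IFNg, at nucleotides 88, 86, 84 and 124. PSMA7, a core particle subunit, scored 4.73, 4.06 and 2.08 after UV, heat shock and HGF, and PSMB4 scored 3.46, 4.38 and 2.22. PSMC2 scored 2.97 after UV, 2.68 after heat shock and 2.00 with IFNg, the last at the bottom of the list. The proteasome genes thus had start peaks more often than peaks elsewhere.

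Of 30 splicing factors, the SR proteins and hnRNPs, 19 had a start peak (63.3%), with 16 after UV, 17 after heat shock, 4 with HGF and 0 with IFNg. Here 80.0% also had a peak elsewhere, and the median mean percentile was 97.7. SFRS6 (SRSF6) scored 7.56 after UV and 6.10 after heat shock at nucleotides 85 and 84. HNRNPA2B1, which has itself been described as a reader of m6A, scored 5.28 after UV, 6.21 after heat shock and 4.54 with HGF. HNRNPK scored 5.05, 5.54 and 2.89, in that order. SFRS1 scored 5.49 after UV and 6.05 after heat shock, and its HGF peak (3.55) lay at nucleotide 213, past the start segment.

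Nuclear-encoded oxidative phosphorylation genes had start peaks in 31 of 73 (42.5%), and peaks elsewhere in 23.3%. After UV 26 were listed, after heat shock 22, with HGF 10 and with IFNg 1. NDUFS6, an accessory subunit of complex I, scored 5.58 after UV, 3.87 after heat shock and 2.76 with HGF. SDHB, the iron-sulphur subunit of complex II, was listed with a start peak after heat shock, at nucleotide 172 with a score of 5.70; its peaks after UV (6.19) and with HGF (2.77) lay at 202 and 216, past the start segment. UQCRQ, a small subunit of complex III, scored 6.32, 5.25 and 2.21 at nucleotides 109, 106 and 109. UQCRB, also of complex III, was the only list member with IFNg, with a score of 2.94. Start peaks of this list thus came mostly from UV and heat shock.

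Heat shock proteins and co-chaperones had start peaks in 18 of 50 (36.0%), 17 after UV, 16 after heat shock, 5 with HGF and 0 with IFNg, and peaks elsewhere in 78.0%. HSPD1 (chr2:198059553-198072885, minus strand), the mitochondrial chaperonin HSP60, scored 6.16 after UV, 8.29 after heat shock and 2.82 with HGF, at nucleotides 109, 110 and 111. Its heat shock score was the highest of the whole heat shock list. HSPA1B, an inducible HSP70, scored 7.61 after UV, 4.32 after heat shock and 4.00 with HGF. Its near-identical copy HSPA1A was listed at 5.18 after UV and 3.99 after heat shock, and reads of the pair cannot be kept apart with certainty. STIP1, which links HSP70 with HSP90, scored 3.00, 3.87 and 2.24, and DNAJC8, a J-domain protein, 3.59, 3.64 and 2.35. Other members, chosen after their values were seen, were listed after 1 stress only: HSPE1, the partner of HSPD1, scored 4.01 after heat shock and HSPH1, an HSP110, 3.30 after UV.

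**Figure D4:**
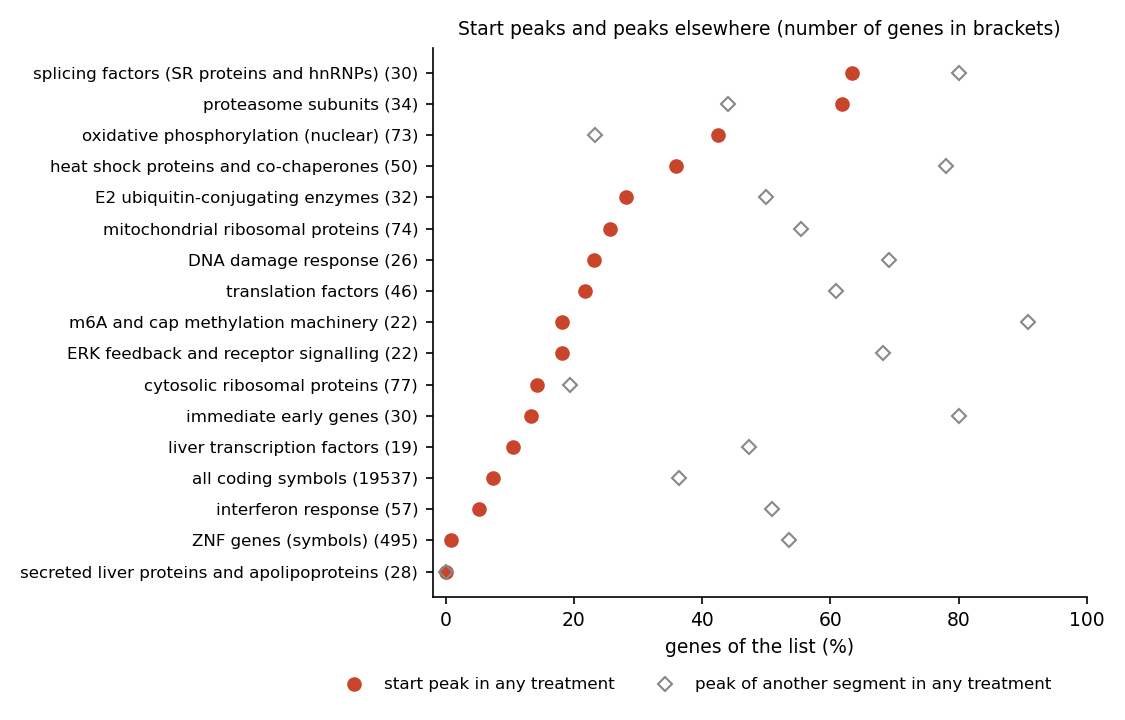
Share of the genes of each list (x axis, %) with a start peak in any treatment (filled circles) and with a peak of another segment (open diamonds), for each list (y axis, with the number of its genes in the table). Proteasome and oxidative phosphorylation genes are the lists whose circle lies to the right of their diamond, at 61.8% against 44.1% and 42.5% against 23.3%.

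Cytosolic ribosomal protein genes had start peaks in 11 of 77 (14.3%) although their median mean percentile was 98.2, and peaks elsewhere in 19.5%. After UV 7 were listed, after heat shock 8, with HGF 3 and with IFNg 1, and 3 of the 11 had a start peak with a score of 3 or more. FAU, which encodes a ubiquitin-like protein fused to RPS30, was the member listed in all 4 treatments, with scores of 4.58, 3.49, 3.98 and 2.36. RPL37 scored 3.68 after UV and 5.05 after heat shock, RPS14 2.99 and 2.58, and RPS4X 4.53 and 2.51. Many genes of this class have processed pseudogenes, so reads may be split between copies.

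Translation factors had start peaks in 10 of 46 (21.7%), all 10 of them after UV, 6 after heat shock and 1 with HGF. EIF4G2, which supports initiation without the cap-binding protein, scored 7.56 after UV and 7.35 after heat shock. EIF5, the GTPase activator of eIF2, scored 5.84, 5.05 and 3.41 after UV, heat shock and HGF. EIF2S1, the subunit of eIF2 phosphorylated under stress, scored 5.17 and 5.14, and EIF3D, a subunit that can bind the cap, 5.25 and 5.40. The naming rule took members listed in the most treatments first, and then by rank, so these 4 genes do not describe the list. The median mean percentile of the list was 96.2, and 39.8% of coding models from 95 to 98 had a start peak. Mitochondrial ribosomal proteins had start peaks in 19 of 74 (25.7%), led by MRPL3 at 6.54 after UV and 4.76 after heat shock. E2 ubiquitin-conjugating enzymes had them in 9 of 32 (28.1%), among them UBE2A at 5.16 and 3.80 and UBE2G1 at 5.02 and 5.64. With a score of 3 or more, 9 mitochondrial ribosomal protein genes and 5 E2 genes had a start peak.

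The m6A machinery itself had start peaks in 4 of 22 genes (18.2%), where 90.9% had a peak elsewhere. METTL3, the catalytic methyltransferase, scored 2.72 after UV and 3.41 after heat shock, at nucleotides 116 and 104. YTHDF3, a cytoplasmic reader, scored 4.05 and 6.52. IGF2BP1, another reader, was listed after UV alone at 5.32, and RBM15B, which recruits the methyltransferase complex, after UV alone at 2.62. None of the 4 had a start peak with HGF or IFNg. Of all coding symbols only 1.75% and 0.317% had one there, so this was usual for any gene.

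Of the signalling genes of the HGF and IFNg treatments, 0 receptor pathway genes had a start peak with HGF and 1 interferon response gene had one with IFNg. Over all coding symbols the shares were 1.75% with HGF and 0.317% with IFNg, so these counts are too small to describe the lists. Of 57 interferon response genes 3 had a start peak in any treatment (5.26%), at a median mean percentile of 72.4, where 4.70% of coding models in the class from 60 to 75 had one, and TAP2 was the 1 listed with IFNg. B2M, the light chain of MHC class I, scored 2.21 after UV and 3.63 after heat shock, and OAS1, an antiviral synthetase, 2.21 with HGF. Of 22 genes of ERK feedback and receptor signalling 4 had a start peak (18.2%, at a median mean percentile of 62.2). MET, the receptor of HGF, scored 4.21 after UV and 5.26 after heat shock. EGFR, ERBB2 and the adaptor GRB2 were listed after UV alone, at 3.42, 2.86 and 3.25.

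Of 26 genes of the DNA damage response 6 had a start peak (23.1%), all 6 of them after UV, 1 after heat shock and 1 with HGF. XPC, the damage sensor of nucleotide excision repair, scored 3.50 and AEN, a nuclease induced by DNA damage, 3.08, both after UV alone. GADD45B scored 3.34 after UV, 2.92 after heat shock and 2.01 with HGF. Immediate early genes had start peaks in 4 of 30 (13.3%), against 80.0% with a peak elsewhere. FOS, a subunit of AP-1, scored 3.66 after UV alone, EGR1 2.28 and CTGF (CCN2) 2.60, and MCL1, which blocks apoptosis, 5.31 after UV and 4.96 after heat shock. FOS and EGR1 were at percentiles of 66.7 and 76.8 after UV but 91.3 and 98.6 with IFNg, where neither had a start peak. Such peaks were rare with IFNg in every class of mean percentile, with the highest share at 2.22% of coding models (95 to 98). Lacking one there was thus usual for any gene.

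Of 28 secreted liver proteins and apolipoproteins 0 had a start peak, at a median mean percentile of 33.1, and 0 had a peak elsewhere. Of 19 liver transcription factors 2 did (10.5%): ONECUT2 scored 3.95, 3.01 and 2.95 after UV, heat shock and HGF, and CEBPB 2.25 after UV. Zinc finger genes named ZNF with a number, a group chosen after its values were seen, had start peaks in 4 of 495 (0.808%) and peaks elsewhere in 53.5%. Of these 4, ZNF609 scored 5.80, 4.67, 2.98 and 3.04 and ZNF217 3.45, 3.77, 3.93 and 2.69 in the order UV, heat shock, HGF and IFNg, the HGF peak of ZNF217 lying past the start segment. This group more often had peaks elsewhere than start peaks, the reverse of the proteasome, at median mean percentiles of 56.7 and 96.7. Of coding models with a mean percentile under 60, 0.299% had a start peak, and of those from 60 to 75 4.70%. The contrast with the proteasome was thus not separated from expression.

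RefSeq transcripts of start-peak genes began with adenosine more often than those of highly expressed genes without one. RefSeq windows matched 1182 of the 1446 start-peak models (81.7%). Their first base was A in 54.6% (51.7 to 57.4), G in 34.9%, C in 9.64% and T in 0.846%. Among coding models with no start peak in that highly expressed group of 6479, 81.9% matched, and the first base was A in 40.2% (38.7 to 41.7), G in 45.3% and C in 14.0%. Of all coding models 49.97% began with A, but only 73.0% had a window, so that value is a weak reference. By treatment A stood first in 55.3% after UV, 55.6% after heat shock, 55.4% with HGF and 54.0% with IFNg, so the treatments hardly differed. Sites listed in 3 or more treatments had A in 58.9% (51.5 to 65.9).

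The first base divided the genes within classes of like expression. At a mean percentile of 75 to 90 a start peak was present in 16.5% of models beginning with A (14.6 to 18.6), 9.66% with G (8.18 to 11.3) and 8.31% with C (5.72 to 11.6). At 90 to 95 the shares were 37.2% (32.4 to 42.2), 22.9% (18.9 to 27.2) and 18.6% (12.3 to 26.4). At 95 to 98 they were 47.4% (40.6 to 54.3), 36.1% (29.7 to 42.8) and 32.9% (22.7 to 44.4). At 98 and over they were 59.8% (50.1 to 69.0), 53% (42.8 to 63.1) and 28.2% (18.6 to 39.5). At 60 to 75 they were 6.26% (5.02 to 7.69), 3.91% (2.83 to 5.24) and 4.09% (2.06 to 7.20). Models with A had the highest value in all 5 classes, but the intervals of A and G overlapped in 3 of them.

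Cytosolic ribosomal protein genes began with C in 77.4% of 62 matched genes, as FAU and RPS14 do. Among the 19 splicing factors and 21 proteasome genes with start peaks are starts with A, as in PSMC4 and SFRS6, and with G, as in PSMB4 and HNRNPK, so a listed start peak also occurred without adenosine as the annotated first base. Over whole lists, A stood first in 33.3% of 27 matched splicing factors, 41.4% of 29 proteasome genes and 30.5% of 59 oxidative phosphorylation genes. For heat shock proteins and co-chaperones it was 51.1% of 47, beside 40.2% in highly expressed models with no start peak. The lists with the highest start shares thus did not all begin with A more often than those models. The start used in these cells was not measured, and RefSeq gives 1 annotated start per window. That start can differ from the start of the deposited gene model, from which peak positions are counted.

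**Figure D5:**
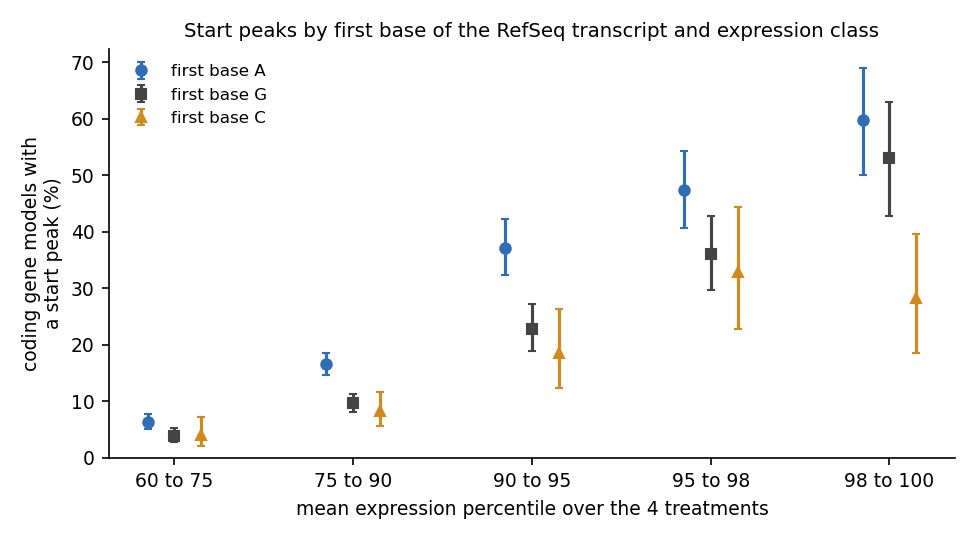
Share of coding gene models with a start peak in any treatment (y axis, %) in 5 classes of mean expression percentile (x axis), by first base of the RefSeq transcript, with exact 95% intervals for counting error. Models beginning with A are highest in each class, from 6.26% at 60 to 75 to 59.8% at 98 and over; those with C are lowest in 4 of the 5 classes.

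Median scores by first base differed by less than 0.3 after UV, after heat shock and with HGF, and by more with IFNg, where few peaks had a window. After UV the median score of start peaks was 3.81 where the transcript began with A and 3.66 where it began with C, and after heat shock 3.69 and 3.92. With HGF it was 2.71 for A (158 peaks) and 2.52 for C (33), with median ranks of 28.7 and 22.1. With IFNg it was 2.73 for A (27 peaks), 3.00 for G (15) and 2.41 for C (8), with ranks of 37.4, 49.95 and 22.2. The motifs GGACT and GGAC, searched on the transcribed strand in the first 50 transcribed bases (each GGACT also counts as GGAC), were present in 5.08% and 21.7% of start-peak models. In highly expressed models with no start peak they were present in 4.49% and 19.2%. Listed start peaks begin at nucleotide 51 of the deposited gene model, whose start can differ from that of RefSeq. The search thus covers the annotated beginning and was not aligned to the listed positions.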

How the data were processed

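Peaks of 4 treatments, each from 1 immunoprecipitation and 1 input library, were read from the deposited table. Per the file headers, it gives for each peak the transcript position, exon, exon length, segment and the authors' score, with 2 as the lowest; its formula is not given in the sources used here. Expression, as deposited, is a fraction from 0 to 1, the authors' rank of the gene model in its treatment, printed as a percentile. Aligner, peak caller and the build of the deposited coordinates are not given in the sources used here; those coordinates are not GRCh38 and are counted from 1. Peaks within 100 nt in a gene model were joined into sites. Score ranks run from 0 to 100 among all peaks of a treatment. RefSeq windows were matched by symbol, taking the start whose genomic span was nearest to that of the gene model. The joining was tested on simulated peaks. Members and gene lists were chosen with earlier results of these data known. Named genes were the 10 start sites in all 4 treatments with the highest lowest rank, the 5 highest scores per single treatment, the 3 largest gains and 3 largest losses of rank, up to 4 members per list, and the m6A machinery; some of these are not reported here. Alternatives changed the score minimum (3), joining distance (50 or 200 nt), expression, GC class, peak number, gene models per symbol and call size (10 points). Tools were matplotlib 3.10.9, scipy 1.17.1, numpy 2.4.6 and pandas 2.3.3 under Python 3.11.15.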

Additional observations from a re-analysis of the deposited data

Results flagged for a closer look

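Noncoding gene models carry no segment label in the deposited table, so their peaks entered none of the comparisons of start peaks. Some of them nevertheless lay within the first 200 nt, above the 3 counts that would leave a count of 0 possible. After UV there were 26 such peaks of 362 noncoding peaks, which is 7.18% (4.75 to 10.3). After heat shock there were 18 of 218, or 8.26% (4.97 to 12.7), and after HGF 17 of 255, or 6.67% (3.93 to 10.5). IFNg had 2 of 115, or 1.74% (0.211 to 6.14). IFNg again had the lowest share, but the intervals of all 4 overlap.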

How the results depend on the processing

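Start shares are given in the order UV, heat shock, HGF and IFNg, and every setting kept HGF above IFNg and both below UV and heat shock. With equal numbers of peaks UV moved to 7.42% and HGF to 2.16%. With a score of 3 or more HGF was 2.32% and IFNg 0.806%. In the 6479 gene models of highest expression the first 3 treatments stood at 12.9%, 11.4% and 5.07%, and in models that every treatment lists with a peak at 5.34%, 4.64% and 2.08%. Up to 60% GC the shares were 10.9%, 10.2%, 5.08% and 1.98%, between 60% and 70% 11.8%, 11.4% and 5.53% for the first 3, and above 70% 6.88%, 5.41%, 1.95% and 0.598%. With start peaks in exon 1 only, a setting chosen after seeing the data, they were 8.17%, 7.13%, 2.89% and 0.774%.

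Start sites in all 4 treatments were 1.01% with a score of 3 or more, and 1.73% when only labelled peaks counted, and sites in 1 treatment were 51.1% with a score of 3 or more. With 10 points in place of 25, treatments stood apart 43 times in either direction at the 36 sites. By treatment and direction the counts ran from 1 to 9 of the 36. Over all 2925 sites listed in all 4 they ran from 154 to 788, so such calls were common everywhere. With a score of 3 or more, start peaks remained in 5 E2 enzyme genes, 3 cytosolic ribosomal protein genes, 2 immediate early genes, 1 liver transcription factor gene and 9 mitochondrial ribosomal protein genes. Of start-peak models after UV, 54.3% of the highly expressed group had another peak, and the background share of first base A was 42.9% in that group. The cause of these moves was not tested beyond the smaller sets that the settings leave. Another 54 values were counted as unmoved. For shares the limit was counting error, and for score ranks it was drawn from the interquartile range. A stricter score removes weak peaks first, and the unknown depth limits any statement that a peak is missing.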
